A study of Homo sapiens with 9 samples.

Results

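The genes described here are the zinc finger genes named ZNF that were clearly expressed in H295R, a steroid-producing cell line from a human adrenocortical carcinoma. Members were selected on measured level: a gene belonged if its symbol was ZNF followed by digits, with or without letters, and its brightest probe set averaged at least 8 on the log2 scale over all 9 arrays. ZNF331, ZNF658 and ZNF627 were added whatever their level, and were chosen by their changes on these arrays, which were already known. That gave 127 of the 468 ZNF genes on the array, out of 19775 genes in all. ZNF658, with a mean of 6.01, was the only member under the level of 8. Just inside that level lay ZNF33A at 8.0003, ZNF420 at 8.01 and ZNF574 at 8.01, and just outside it ZNF586 at 7.9995, ZNF444 at 7.99 and ZNF211 at 7.96.

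Cells were treated for 3 h with 100 nM torcetrapib, which blocks cholesteryl ester transfer protein (CETP) and is labelled by its compound code, with 100 nM angiotensin II, the peptide hormone that drives aldosterone secretion, or with DMSO as the vehicle. Each group held 3 arrays of total RNA from this single cell line, with no genetic change named for any group. The study asked whether CETP inhibitors switch on the renin-angiotensin-aldosterone system in cells of adrenal origin. Nothing in the labels ties the arrays to different cultures, so the p-values reflect only how these samples vary, and that variation may be technical.

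Most ZNF symbols belong to proteins of the C2H2 type, in which fingers folded around a zinc ion read DNA sequence. Many of them carry a KRAB domain, which recruits the corepressor TRIM28 and, through it, the histone methyltransferase SETDB1 and HP1 proteins, and so silences nearby chromatin, transposable elements above all. The human genes lie in large clusters, many on chromosome 19, and their close kinship means that a probe set can bind the transcripts of several of them. Probe sets marked _s_at or _x_at are those that the array's makers flagged as able to do so.

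Of the adrenal cortex markers, 8 of 9 measured lay above the median gene at 6.73, among them STAR at 11.9, CYP11A1 at 11.2 and NR5A1 at 7.12. INHA lay below it at 6.41. Of 10 fibroblast, endothelial and immune markers 1 lay above the median gene, COL1A1 at 7.72, and the leukocyte marker PTPRC was the lowest at 3.50. Of 5 adrenal medulla markers 2 lay above the median gene, CHGB at 8.53 and CHGA at 6.86. TH, which makes catecholamines, was the lowest of these at 3.91. Array medians ran from 5.537 to 5.602. A sign of RNA quality, the log2 difference between 5′ and 3′ control probe sets for ACTB and GAPDH (5′ minus 3′), was -0.24 ± 0.03 (SD, n = 3) with torcetrapib, -0.62 ± 0.02 with angiotensin II and -0.50 ± 0.22 with DMSO. In exact permutation tests (two-sided) p was 0.1 for torcetrapib against each other group, the smallest p that 3 against 3 arrays allow. DMSO replicate 2 stood at -0.28, beside the torcetrapib arrays.

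ZNF331, a KRAB zinc finger gene that is imprinted and reported as a tumour suppressor, was higher with both treatments. Its brightest probe set read 8.96, 8.99 and 9.15 on the torcetrapib arrays, 8.76, 8.76 and 8.82 on the angiotensin II arrays and 7.53, 7.51 and 7.63 on the DMSO arrays. No treated array came near a DMSO array, and every torcetrapib array lay above every angiotensin II array. The difference from DMSO was 1.47 ± 0.07 (SE) with torcetrapib, a 2.78-fold higher level, and 1.22 ± 0.07 with angiotensin II, a 2.33-fold higher level. A second probe set of the plain _at type read 8.51, 8.31 and 8.46 with torcetrapib, 8.59, 8.51 and 8.57 with angiotensin II and 7.31, 6.68 and 7.34 with DMSO. It showed the same separation from DMSO, while the order of the treatments was turned: torcetrapib minus angiotensin II was -0.13 ± 0.14 there, against 0.25 ± 0.07 on the brightest. Because ZNF331 was chosen for its change, none of these differences was tested.

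ZNF658 and ZNF627 were low with angiotensin II and near the vehicle with torcetrapib. ZNF658, reported as a regulator of genes that respond to zinc, read 6.33, 6.45 and 6.33 with torcetrapib, 4.90, 4.64 and 5.25 with angiotensin II and 6.83, 6.40 and 6.91 with DMSO. All 3 angiotensin II arrays lay below the other 6, and the torcetrapib arrays overlapped with DMSO. The difference from DMSO was -1.78 ± 0.15 with angiotensin II and -0.34 ± 0.15 with torcetrapib, on a probe set of the plain _at type that is the only one for this gene. ZNF627 read 8.49, 8.53 and 8.39 with torcetrapib, 7.39, 7.53 and 7.65 with angiotensin II and 8.54, 8.59 and 8.67 with DMSO. Its angiotensin II arrays again stood apart below all others, with a difference of -1.08 ± 0.08 from DMSO, against -0.13 ± 0.08 with torcetrapib, whose arrays lay just below those with DMSO. That value comes from an _s_at probe set, and the dimmer _at probe set of ZNF627, at 5.25 on average, showed -0.002 ± 0.13 with angiotensin II.

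**Figure D1:**
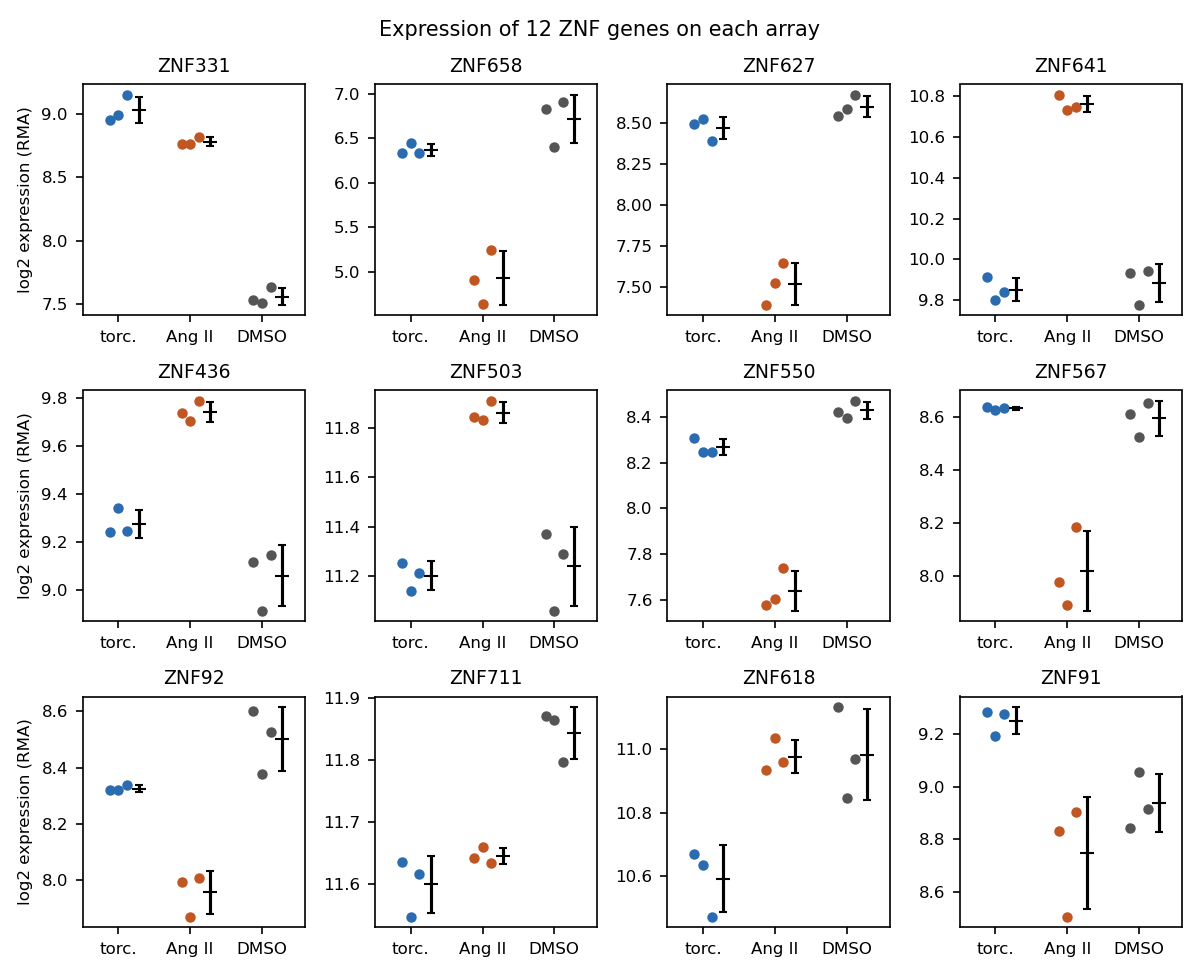
Log2 expression (vertical axis of each panel, its own scale) of 12 ZNF genes on the torcetrapib, angiotensin II and DMSO arrays. Points are arrays and bars are the group mean ± SD (n = 3). ZNF331 was high on all 6 treated arrays, ZNF641, ZNF436 and ZNF503 were high on the angiotensin II arrays, and ZNF658, ZNF627, ZNF550, ZNF567 and ZNF92 were low there.

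Promoter windows of the RefSeq annotation (GRCh38.p14, 250 bases before to 50 after the gene start) matched 106 of the 127 members. They were searched on both strands for TGACGTCA, the palindromic cAMP response element bound by CREB family factors, and for TGACG, which the full element contains on each strand. TGACGTCA occurred in 7 of the 106 windows (6.6%) and in 1.98% of all 27305 promoters, and TGACG in 36.8% and 25%. The member windows were also richer in G and C, with a median of 64.3% against 58.3%. The windows of ZNF331, which was higher with both treatments, of ZNF644 and ZNF641, which rose with angiotensin II, and of ZNF121 and ZNF200, which fell with it, are shown with the matches in capitals.
ZNF331, chr19:53520764-53521063, plus strand: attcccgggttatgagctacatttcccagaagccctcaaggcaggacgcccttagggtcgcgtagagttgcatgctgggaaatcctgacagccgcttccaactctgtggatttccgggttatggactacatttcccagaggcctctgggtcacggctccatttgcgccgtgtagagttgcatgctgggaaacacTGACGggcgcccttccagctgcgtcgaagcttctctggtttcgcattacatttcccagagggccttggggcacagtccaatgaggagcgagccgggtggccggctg
ZNF644, chr1:91021986-91022285, minus strand: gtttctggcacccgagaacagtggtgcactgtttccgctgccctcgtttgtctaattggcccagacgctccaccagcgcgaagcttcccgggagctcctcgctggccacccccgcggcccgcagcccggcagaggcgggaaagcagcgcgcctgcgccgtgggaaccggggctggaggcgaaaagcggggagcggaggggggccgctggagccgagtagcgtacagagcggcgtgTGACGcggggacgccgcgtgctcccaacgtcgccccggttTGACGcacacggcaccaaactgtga
ZNF641, chr12:48350870-48351169, minus strand: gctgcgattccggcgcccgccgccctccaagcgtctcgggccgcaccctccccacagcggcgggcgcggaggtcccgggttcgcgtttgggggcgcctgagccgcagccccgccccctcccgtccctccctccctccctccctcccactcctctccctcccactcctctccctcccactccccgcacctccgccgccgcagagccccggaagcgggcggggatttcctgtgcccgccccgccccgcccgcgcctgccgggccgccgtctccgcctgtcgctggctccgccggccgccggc
ZNF121, chr19:9584455-9584754, minus strand: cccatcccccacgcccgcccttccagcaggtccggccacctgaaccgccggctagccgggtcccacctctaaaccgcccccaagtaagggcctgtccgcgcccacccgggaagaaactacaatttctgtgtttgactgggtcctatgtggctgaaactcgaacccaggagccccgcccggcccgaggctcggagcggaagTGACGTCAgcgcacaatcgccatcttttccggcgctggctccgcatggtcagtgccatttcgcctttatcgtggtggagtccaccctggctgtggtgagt
ZNF200, chr16:3235109-3235408, minus strand: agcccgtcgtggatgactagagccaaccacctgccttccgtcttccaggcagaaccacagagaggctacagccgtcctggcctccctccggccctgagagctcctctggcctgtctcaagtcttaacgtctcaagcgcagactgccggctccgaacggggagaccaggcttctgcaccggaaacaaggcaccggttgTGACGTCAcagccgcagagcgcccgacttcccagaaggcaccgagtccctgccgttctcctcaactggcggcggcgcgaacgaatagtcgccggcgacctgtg
The first match base lay 56 bases before the start in ZNF331, 15 before and 25 after it in ZNF644, and 50 and 53 bases before it in ZNF121 and ZNF200. Those of ZNF331 and ZNF644 are the short form, those of ZNF121 and ZNF200 the full element, and ZNF641 held neither. The full element was also found in ZNF266, ZNF330, ZNF335, ZNF511 and ZNF593. It occurred in 2 of 23 windows of members that fell with angiotensin II, in 0 of 6 of those that rose and in 6.76% of those not called. The short form occurred in 34.8% of windows of members that fell, in 66.7% of those that rose and in 33.8% of those not called. A match describes the letters of a window and is no sign of binding.

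Angiotensin II against DMSO asks what the hormone itself did to these regulators within 3 h. Of the 124 members whose change was not used to choose them, 27 fell (21.8%) and 6 rose (4.84%), and 91 passed the test in neither direction. Among all 19775 genes 2.76% fell and 3.36% rose, 6.12% in both directions together. Of the 7005 genes that, like the members, averaged at least 8, 4.94% fell and 6.21% rose, so the share of members that fell stood above both and the share that rose lay between them. The median change of the members was -0.09, against 0.01 for all genes and -0.02 for the genes of that level. Among the 341 dimmer ZNF genes the test gave 77 falls (22.6%) and 5 rises, with a median of -0.13. Of the 124, 81 (65.3%) had a negative change, as had 46.1% of all genes and 57.9% of those averaging at least 8.

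The plot of the distribution of changes shows that this was a shift of many members by small amounts. The middle 50% of the 124 changes ran from -0.22 to 0.05, and 4 called members changed at least 1.5-fold. The arrays of both groups were apart in all 33 called members, and over the 124 the angiotensin II arrays lay wholly below the DMSO arrays in 44 and wholly above in 10, which is 35.5% and 8.06%. The shares were 8.37% and 9.26% for all genes, and 15.9% and 12.2% for those averaging at least 8. The median deviation of the members from their own 9-array mean was -0.045, -0.060 and 0.004 on the angiotensin II arrays and 0.056, -0.003 and 0.108 on the DMSO arrays, so the groups overlapped in this summary through DMSO replicate 2.

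**Figure D2:**
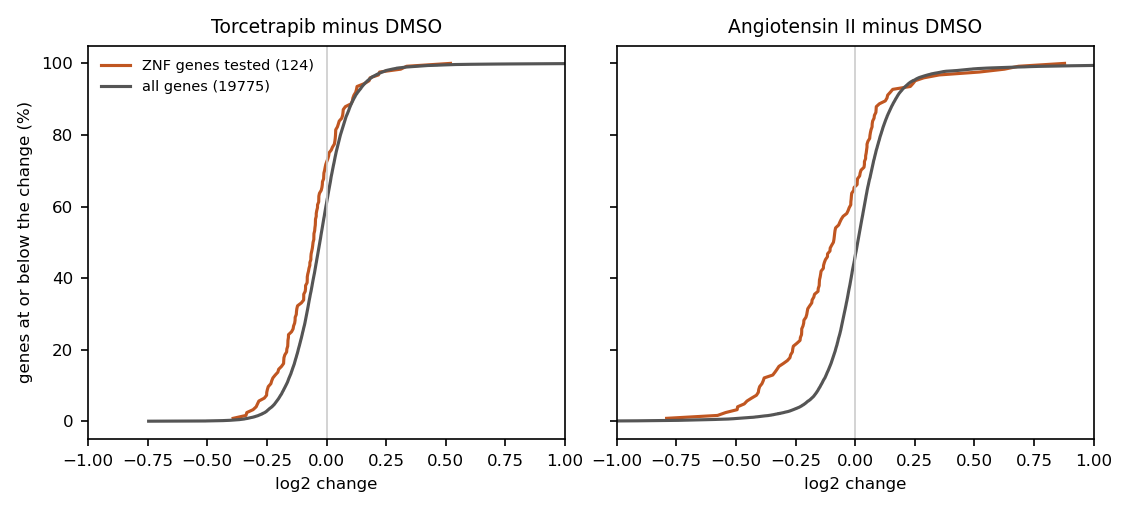
Cumulative share of genes (vertical axis, percent) at or below each log2 change (horizontal axis, drawn from -1 to 1) for torcetrapib minus DMSO and angiotensin II minus DMSO. With angiotensin II the line of the 124 ZNF genes lies left of that of all 19775 genes, with medians of -0.09 and 0.01, and with torcetrapib the medians are -0.05 and -0.03.

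The rises with angiotensin II were few and clear of the vehicle. ZNF641 read 10.81, 10.73 and 10.75 with angiotensin II, against 9.93, 9.78 and 9.94 with DMSO. It rose 1.84-fold (log2 change 0.88 ± 0.05, adjusted p = 1.76e-08), and its other 3 probe sets showed 0.87, 0.97 and 0.72. ZNF436, a KRAB protein, read 9.74, 9.70 and 9.79, against 9.12, 8.91 and 9.15 with DMSO, and rose 1.61-fold (0.68 ± 0.07, adjusted p = 3.15e-06). These arrays did not overlap in either gene.

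ZNF503, a corepressor of the NET family that acts in embryonic development, read 11.85, 11.83 and 11.91 with angiotensin II, against 11.37, 11.06 and 11.29 with DMSO. It rose 1.54-fold (0.63 ± 0.06, adjusted p = 5e-06). Its relative ZNF703, a corepressor known from luminal breast cancer, moved the other way: 9.05, 9.21 and 9.25 with angiotensin II, against 9.64, 9.35 and 9.74 with DMSO, a fall with a log2 change of -0.41 ± 0.09. ZNF644, a partner of the histone methyltransferases G9a and GLP, read 10.47, 10.38 and 10.46, against 9.93, 9.85 and 9.98 with DMSO, and rose by 0.52 ± 0.05. ZNF189 rose by 0.35 ± 0.04. ZNF274, which brings SETDB1 to the clusters of zinc finger genes themselves, rose by 0.29 ± 0.07 (adjusted p = 0.026) on an _s_at probe set, and its dim _at probe set showed -0.09 ± 0.11.

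Among the falls, ZNF550 led. It read 7.58, 7.60 and 7.74 with angiotensin II, against 8.42, 8.40 and 8.47 with DMSO, and ended 1.73-fold lower (log2 change -0.79 ± 0.07, adjusted p = 1.07e-06), with -0.79 ± 0.10 on its other, dim probe set of mean 4.98. ZNF567 read 7.98, 7.89 and 8.18, against 8.61, 8.52 and 8.65 with DMSO, and ended 1.49-fold lower (-0.58 ± 0.08, adjusted p = 0.000114). Of its other 3 probe sets, those averaging 7.46 and 6.97 showed -0.68 and -0.55 and the dimmest, at 5.03, -0.07. ZNF92 read 7.99, 7.87 and 8.01, against 8.60, 8.38 and 8.52 with DMSO, and changed by -0.54 ± 0.07 (adjusted p = 0.000128). By the mean of all its probe sets the ZNF92 call ended (adjusted p = 0.151). In these genes every angiotensin II array lay below every DMSO array.

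The falls that followed were of similar size. ZNF12, a KRAB repressor, changed by -0.46 ± 0.08, with changes between -0.43 and -0.28 on its other 3 probe sets. ZNF292, a very large zinc finger protein and candidate tumour suppressor, changed by -0.43 ± 0.08 and by -0.54 on its second probe set. ZNF420, reported to hold back p53, changed by -0.40 ± 0.09 and by -0.84 ± 0.24 on its second probe set. ZNF850, ZNF84 and ZNF777 changed by -0.45, -0.41 and -0.40. ZNF665, on an _x_at probe set, changed by -0.49 ± 0.13 (adjusted p = 0.0311), with DMSO arrays spread from 9.04 to 9.49. The other 15 falls ran from -0.39 in ZNF200 to -0.20 in ZNF711.

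With angiotensin II against DMSO, probe sets of the same gene mostly moved together. Of the 33 called members 21 had another probe set averaging at least 6. In 17 of them all such probe sets changed in the same direction. The same was true of 1 of 2 such members with torcetrapib against DMSO, and of 18 of 27 between the treatments. ZNF33A was the clear exception: its brightest probe set changed by -0.49 ± 0.10 with angiotensin II, while another, nearly as bright at 7.66, changed by 0.29 ± 0.09. That second probe set read 7.92, 7.66 and 7.999 with angiotensin II, against 7.56, 7.53 and 7.64 with DMSO. ZNF200 fell on its _s_at probe set and showed 0.05 ± 0.07 on its _at probe set. By type, 20 of 86 members measured by an _at probe set fell, 4 of 29 by an _s_at, 3 of 8 by an _x_at and 0 of 1 by an _a_at probe set. Over all genes 2.77%, 2.89%, 2.86% and 1% of these types fell.

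The members that fell were spread over the genome. On chromosome 19 lay 42 of the 124 members (33.9%, against 6.68% of all genes), and 11 of them fell and 1 rose. Of the 82 members elsewhere 16 fell and 5 rose. That is 26.2% falls on chromosome 19 and 19.5% elsewhere, where the shares over all genes were 5.61% and 2.55%. The median change was -0.14 on chromosome 19 and -0.03 elsewhere, a difference that was not tested, and over all genes it was 0.01 in both places. In the order of protein-coding genes 9 pairs of members were direct neighbours. Both fell in 1 pair, ZNF567 and ZNF850, and a single gene fell in 5 pairs, among them ZNF226 and ZNF227, where ZNF227 changed by -0.39 and ZNF226 by -0.13 (adjusted p = 0.173). On chromosome 7, ZNF398 and ZNF212 changed by -0.38 and -0.33, and ZNF282, which lies between them, had a change of -0.15 (adjusted p = 0.463).

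The share of members that fell stood above that of all genes under each of the 15 alternatives tried, at 13.7% to 38.7% of the members measured, against 1.63% to 6.93% of all genes. It was 17 without the intensity trend in the variance and 48 with array weights, where replicate 1 of angiotensin II weighed 6.15 and its other arrays 0.448 and 0.48. Of the 33 calls 16 held under each alternative that measured the gene, among them ZNF641, ZNF436, ZNF503, ZNF644, ZNF550 and ZNF567. The ZNF420 call was lost when angiotensin II replicate 1 or DMSO replicate 3 was left out, and that of ZNF703 ended on leaving out DMSO replicate 1, DMSO replicate 3 or angiotensin II replicate 1. For ZNF777 the arrays were DMSO replicate 1, DMSO replicate 3 and angiotensin II replicate 2. The ZNF665 call ended without DMSO replicate 2 or any one angiotensin II array, and that of ZNF274 without DMSO replicate 2 or angiotensin II replicate 1 or 3. By the mean of all probe sets 15 of the 27 falls and 5 of the 6 rises held. Calls lost there included ZNF92, ZNF33A, ZNF595, ZNF703 and ZNF777. Those of ZNF703 and ZNF777 also ended without the intensity trend.

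**Figure D3:**
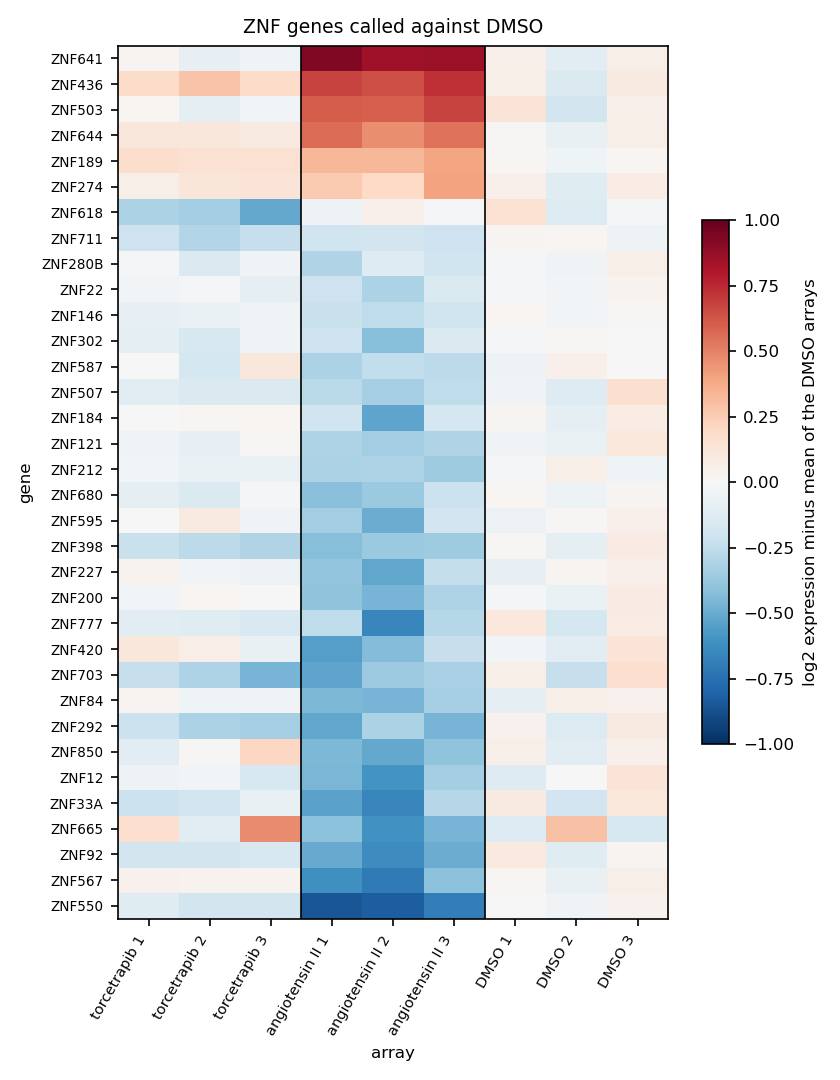
Log2 expression minus the mean of the DMSO arrays (colour, red higher and blue lower) for the 34 ZNF genes called against DMSO, in rows, on each array, in columns. The 6 rises, at the top, and most of the 27 falls stand out on the angiotensin II arrays, ZNF711 is low with both treatments, and ZNF618 is low on the torcetrapib arrays.

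Torcetrapib against DMSO asks whether the CETP inhibitor changed the same regulators. Of the 124 members 2 fell and 0 rose (limma, 8 higher and 26 lower at an unadjusted p under 0.05), against 0.566% and 0.592% of all genes (1.16% in both directions). Among genes averaging at least 8, 1.44% fell and 1.33% rose, so the 1.61% of members that fell lay near that background. At an unadjusted p under 0.05, 21% of the members were lower and 6.45% higher, against 8.86% and 4.49% of all genes and 15.1% and 8.07% of those averaging at least 8. The median change was -0.05, against -0.03 for all genes, and 89 changes were negative, where 60.9% of all genes were. The torcetrapib arrays lay wholly below the DMSO arrays in 24 members and wholly above in 9, 19.4% and 7.26%, against 10.5% and 6.04% of all genes and 16.5% and 10.6% of those averaging at least 8. Both comparisons use the same DMSO arrays, so their values are not independent.

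ZNF618, which recruits the chromatin protein UHRF2 to hydroxymethylated DNA, read 10.67, 10.63 and 10.47 with torcetrapib, against 11.13, 10.85 and 10.97 with DMSO. It ended 1.31-fold lower (log2 change -0.39 ± 0.07, adjusted p = 0.00809), while its other probe sets, at 9.92 and 9.86, showed -0.01 ± 0.05 and -0.10 ± 0.05. With angiotensin II its change was -0.01 ± 0.07. ZNF711, an X-linked gene of intellectual disability, read 11.64, 11.55 and 11.62 with torcetrapib and 11.64, 11.66 and 11.63 with angiotensin II, against 11.87, 11.86 and 11.80 with DMSO. Both treatments stood below DMSO, with changes of -0.24 ± 0.04 with torcetrapib (adjusted p = 0.00264) and -0.20 ± 0.04 with angiotensin II (adjusted p = 0.0022), and it was the only member called against DMSO in both.

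The second ZNF711 probe set, an _s_at, did not share that pattern. It read 9.46, 9.48 and 9.65 with torcetrapib and 8.36, 8.18 and 8.64 with angiotensin II, against 8.52, 9.74 and 9.07 with DMSO. The DMSO arrays alone spanned most of the range, and replicate 2, the array with the highest 5′ to 3′ index among them, was the highest. Its change was 0.42 ± 0.23 with torcetrapib and -0.72 ± 0.23 with angiotensin II.

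Among the 124 tested members, the largest positive changes with torcetrapib missed the threshold. ZNF800 had 0.52 ± 0.14 (adjusted p = 0.0915, chosen after its value was seen), ZNF428 had 0.34 ± 0.08 (adjusted p = 0.0606), and ZNF91, a repressor of SVA transposons, had 0.31 ± 0.09 (adjusted p = 0.12). For the members that led with angiotensin II, the torcetrapib changes were -0.03 in ZNF641 (95% interval -0.15 to 0.08), 0.22 in ZNF436 (0.08 to 0.36), -0.04 in ZNF503 (-0.17 to 0.09), -0.16 in ZNF550 (-0.31 to -0.02) and 0.04 in ZNF567 (-0.12 to 0.20). None of these passed the test. The 3 dimmer probe sets of ZNF641 gave torcetrapib changes of 0.31, 0.32 and 0.54, unlike its brightest. The second probe set of ZNF436, at 8.91 on average, read 8.98, 9.09 and 8.97 with torcetrapib and 9.16, 9.16 and 9.14 with angiotensin II, against 8.42, 8.65 and 8.60 with DMSO. All its treated arrays lay above DMSO, with changes of 0.46 ± 0.07 with torcetrapib and 0.60 ± 0.07 with angiotensin II.

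Without DMSO replicate 2, 18 members fell and 3 rose (3.19% and 1.45% of all genes). Adding the 5′ to 3′ index as a covariate left 0 falls and 1 rise (0.806%), against 0.0253% and 0.359% of all genes. The ZNF618 call also ended without torcetrapib replicate 3. Of the 2 calls with torcetrapib against DMSO, 0 held under each alternative. With the values quantile normalised again, 9 fell and 2 rose, 7.26% and 1.61%, against 1.7% and 0.865% of all genes.

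Torcetrapib against angiotensin II, both at 100 nM and 3 h, compares the 2 treatments directly. Here 28 members were higher with torcetrapib and 14 lower, 22.6% and 11.3% of the 124, against 4.61% and 6.68% of all genes. Of the genes averaging at least 8, 8.75% were higher and 11.9% lower, so the members' share on the lower side lay near that background. The torcetrapib arrays lay wholly above the angiotensin II arrays in 41 members and wholly below in 30, 33.1% and 24.2%, against 10.3% and 18.4% of all genes and 19% and 24.7% of those averaging at least 8. Of the 124 differences 53 (42.7%) were negative, as were 62.4% over all genes and 51.8% over those averaging at least 8. The median difference was 0.03, against -0.04 for all genes. The 5′ to 3′ index stood 0.37 higher on the torcetrapib arrays, with no overlap. With that index in the model, 4 members were higher and 2 lower, 3.23% and 1.61%, against 0.455% and 0.961% of all genes. Because the index differed between these groups without overlap, that model cannot tell it apart from the treatment. A call kept or lost in it is therefore no check on the gene. With the values quantile normalised again 26 were higher and 20 lower, 21% and 16.1%, against 5.25% and 10.2% of all genes. Of the 42 calls between the treatments 5 held under each alternative that measured the gene.

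On the higher side, ZNF550, ZNF567, ZNF665, ZNF850, ZNF420 and ZNF84 were also among the falls with angiotensin II against DMSO, which uses the same angiotensin II arrays. ZNF550 differed by 0.63 ± 0.07 (adjusted p = 1.87e-05) and ZNF567 by 0.61 ± 0.08 (adjusted p = 7.1e-05), and both calls held with the index in the model. ZNF665 differed by 0.67 ± 0.13, ZNF850 by 0.49, ZNF420 by 0.44 and ZNF84 by 0.40. For ZNF91 the arrays read 9.28, 9.19 and 9.27 with torcetrapib, against 8.83, 8.51 and 8.90 with angiotensin II, a difference of 0.50 ± 0.09 (adjusted p = 0.00178) with DMSO in between at 8.94. For ZNF428 they read 8.77, 8.77 and 8.61, against 8.32, 8.13 and 8.44 with angiotensin II. The calls of ZNF665, ZNF850, ZNF420, ZNF84, ZNF91 and ZNF428 ended with the index in the model (adjusted p = 0.0663 in ZNF850 to 0.706 in ZNF665).

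On the lower side ZNF641 differed by -0.91 ± 0.05 (adjusted p = 1.63e-08) and ZNF503 by -0.66 ± 0.06 (adjusted p = 3.69e-06), both also with the index in the model. The dimmer probe sets of ZNF641 had positive changes with both treatments and differed less between them than the brightest. ZNF436 and ZNF644 differed by -0.47 and -0.41, calls that ended with the index (adjusted p = 0.269 and 0.0546). The second probe set of ZNF436 differed by -0.14 ± 0.07. ZNF512B read 8.79, 8.77 and 8.70 with torcetrapib, against 9.16, 9.15 and 9.14 with angiotensin II, and its second probe set differed by -0.46 where the brightest differed by -0.39. ZNF592 differed by -0.39, ZNF618 by -0.39 and ZNF395, which binds the huntingtin gene promoter, by -0.38. The second _s_at probe set of ZNF395 differed by -0.000523. For ZNF862, ZNF451, ZNF644 and ZNF618 a dimmer probe set differed in the opposite direction, by 0.41 ± 0.09, 0.09 ± 0.08, 0.28 ± 0.16 and 0.10 ± 0.05. The ZNF618 call ended by the mean of all probe sets and with the index in the model.

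**Figure D4:**
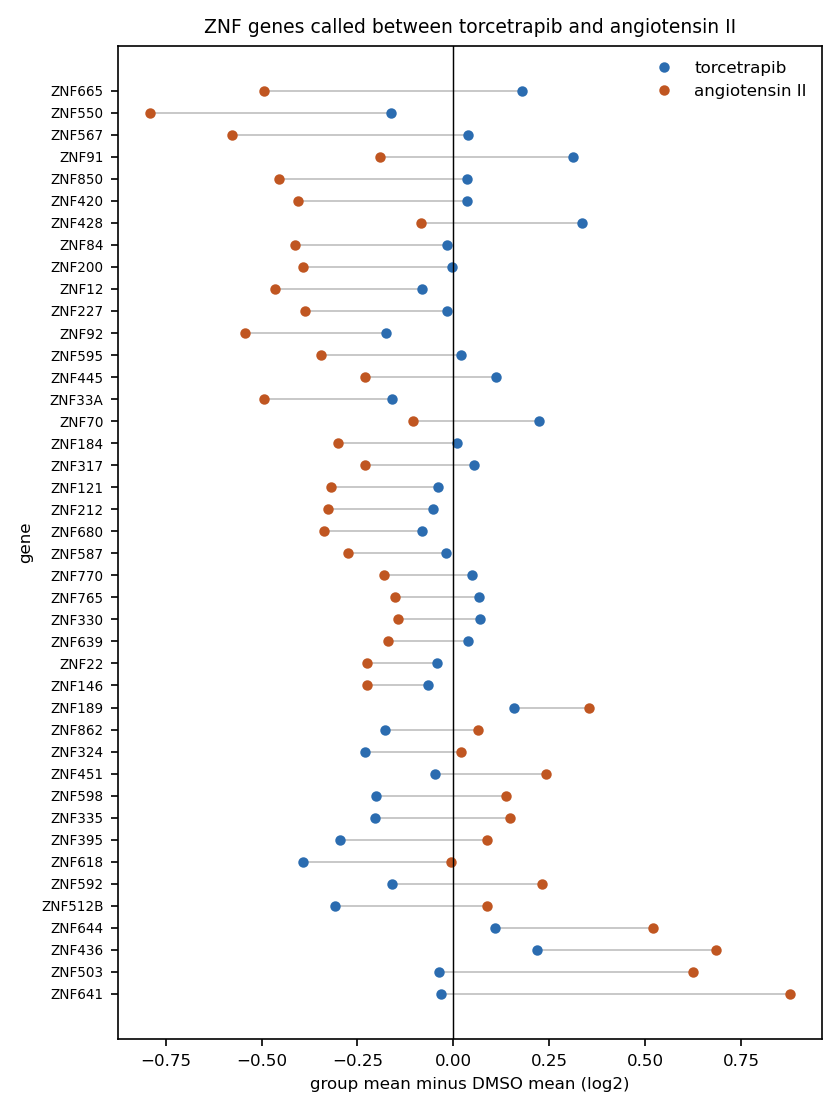
Group mean minus DMSO mean (horizontal axis, log2) for torcetrapib (blue) and angiotensin II (orange) in the 42 ZNF genes called between both treatments. In the 28 genes at the top the torcetrapib point lies right of the angiotensin II point, and in the 14 at the bottom it lies left, with ZNF641 farthest apart.

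Of the partners through which KRAB proteins act, 1 passed the test with angiotensin II against DMSO and another with torcetrapib. Of 30 such genes 29 were measured, all averaging at least 8 but DNMT3A, DNMT3B, H3-3A and MTA2. With angiotensin II 0 rose and 1 fell (limma, 0 and 7 at an unadjusted p under 0.05): CBX3, an HP1 protein, with -0.14 ± 0.03 (adjusted p = 0.0142). That call is 3.45% of the list, against 6.12% of all genes and 11.1% of those averaging at least 8. The unadjusted falls are 24.1% of the list, against 8.53% of all genes and 16.5% of those averaging at least 8. The angiotensin II arrays lay wholly below DMSO in 24.1% of the list, against 8.37% and 15.9%. With torcetrapib 0 rose and 1 fell (1 and 6 unadjusted): CBX5, HP1 alpha, with -0.18 ± 0.03 (adjusted p = 0.0145). This call is 3.45% of the list, against 1.16% of all genes and 2.77% of those averaging at least 8. Here the unadjusted falls are 20.7% of the list, against 8.86% of all genes and 15.1% of those averaging at least 8. Between the treatments CBX1 and the histone chaperone RBBP7 were higher with torcetrapib, by 0.17 and 0.12, and MBD3, a subunit of the NuRD complex, was lower, by -0.25 ± 0.06. These are 10.3% of the list, where 11.3% of all genes and 20.7% of those averaging at least 8 were called. TRIM28 itself changed by 0.05 ± 0.05 with angiotensin II and by -0.11 ± 0.05 with torcetrapib, and SETDB1 by -0.17 ± 0.07 and -0.14 ± 0.07, none of which passed.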

How the data were processed

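The values deposited by the authors are log2 signals for each probe set from RMA (robust multi-array averaging), according to the submitters' processing notes. Software, version and chip description file: not given in the sources used here. Total RNA was extracted with a column kit and labelled with biotin, per the labels' protocols. The 9 arrays hold 54675 probe sets, of which 62 are controls, 41091 carry 1 gene symbol, 1801 several and 11721 none. Those with 1 symbol were used, and each gene was read from its brightest probe set by 9-array mean. All 127 members matched the RefSeq gene table.

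All 19775 genes entered one limma 3.58.1 model in R 4.3.3, with a mean for each of the 3 groups, 6 residual degrees of freedom and an intensity trend in the moderated variance. Two-sided p-values were adjusted over all genes (Benjamini-Hochberg, threshold 0.05). Changes carry ± SE, intervals are 95%, and other probe sets come from the same fit over all probe sets. The number of arrays limits the precision. Members and lists were chosen with earlier results of these data known. Genes were named by rank of change among called members (12 a direction with angiotensin II, 8 in the other comparisons), by closeness to the level of 8, by a call with both treatments or by a discordant probe set of mean at least 6. ZNF121, ZNF200 and the neighbours of called genes were named after their values were seen. Alternatives covered variance, scaling, probe set choice, array weights, the groups in the fit, RNA quality and single arrays. The fit was tested on simulated data. Protein features of the members were not analysed here.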

Additional observations from a re-analysis of the deposited data

How the results depend on the processing

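Each of the 3 comparisons was recomputed under 9 alternatives and with each of its arrays left out, and counts are given for limma. Falls of members with angiotensin II numbered 17 without the intensity trend and 48 with array weights, against 27. Those 17 and 48 are 13.7% and 38.7% of the members, against 1.63% and 6.93% of all genes. With single arrays left out falls were 18 to 28 and rises 5 to 7. For torcetrapib minus DMSO, falls were 0 without the trend, 9 with quantile normalisation, 0 by the mean of probe sets, 15 with array weights, 0 with the 5′ to 3′ index and 1 to 18 with single arrays left out, the highest without DMSO replicate 2. Rises were 1 with dim genes filtered (0.806%, against 0.951% of all genes) and 2 with quantile normalisation (1.61% against 0.865%). There was 1 by the mean of probe sets (0.806% against 0.445%) and 6 with array weights (4.84% against 2.67%). Rises were 1 with only the 2 groups compared (0.806% against 0.45%), 1 with the index (0.806% against 0.359%) and 0 to 3 with single arrays left out. With quantile normalisation 7.26% of the members fell, against 1.7% of all genes. With array weights the falls were 12.1% against 3.76%, and without DMSO replicate 2 they were 14.5% against 3.19%. For torcetrapib minus angiotensin II, 18 members were higher without the trend, 18 with arrays centred, 46 with array weights, 4 with the index and 16 to 30 with single arrays left out, the lowest without angiotensin II replicate 2. Lower were 9 by the mean of probe sets, 27 with array weights and 2 with the index. With single arrays left out 9 to 13 were lower, the fewest without torcetrapib replicate 3. With array weights 37.1% of the members were higher and 21.8% lower, against 11.6% and 19.8% of all genes. That lower share lay near the background. Of the KRAB partners, with angiotensin II 0 changed without the trend, centred, by the mean or without _x_at and _s_at probe sets, 2 with dim genes filtered or quantile normalisation, 4 with array weights and 0 to 2 with single arrays left out. With torcetrapib 0 changed without the trend or by the mean, 2 with quantile normalisation, 4 with array weights and 0 to 5 with single arrays left out. Between the treatments 0 changed without the trend, 1 centred or with the index and 5 without _x_at and _s_at probe sets. The number was 6 with dim genes filtered, quantile normalisation or only the 2 groups. It was 11 by the mean, 12 with array weights and 1 to 3 with single arrays left out, each of 29 measured genes. Of all genes 6.72% were higher and 4.95% lower by the mean, and 11.6% and 19.8% with array weights. These shares were 6.59% and 9.11% with dim genes filtered and 5.25% and 10.2% with quantile normalisation. With only the 2 groups they were 4.81% and 7.31%. With array weights 6.93% of all genes fell and 6.79% rose with angiotensin II, and 3.76% and 2.67% with torcetrapib.

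By the mean of all probe sets the sign turned for ZNF711 and CBX5 with torcetrapib (0.087 and 0.26), and between the treatments for ZNF711 (0.55), CBX5 (0.54), ZNF451 (0.13) and ZNF862 (0.084). That of ZNF274 with angiotensin II turned without _x_at and _s_at probe sets (-0.093). The cause was not tested. No paired analysis was possible because the labels give the groups no shared replicate numbers.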

Other observations

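ZNF genes that lie near each other, members and dimmer ones together, gave these values. In the order of protein-coding genes, runs of ZNF genes were taken as those separated by at most 5 genes. The largest run, from ZNF264 to ZNF446 on chromosome 19, held 41 genes, of which 12 fell with angiotensin II and 1 rose. Its median changes were -0.11 with angiotensin II and -0.007 with torcetrapib. In the run from ZNF283 to ZNF180 on chromosome 19, 9 of 19 genes fell with angiotensin II and 0 rose, with a median change of -0.34, against -0.006 with torcetrapib. From ZNF101 to ZNF254, 9 of 26 fell and 0 rose, with medians of -0.21 and 0.02. In the run from ZNF565 to ZNF573, which holds the members ZNF567, ZNF850, ZNF420, ZNF146 and ZNF529, 5 of 24 fell and 1 rose, with medians of -0.19 and 0.04. From ZNF628 to ZNF580, on the same chromosome, 0 of 7 changed, with a median of 0.06 with angiotensin II. On chromosome 7, from ZNF786 to ZNF862, 4 of 10 fell and 0 rose, with medians of -0.21 and -0.15. Falls with angiotensin II made up 21.8% of the tested members, 22.6% of the dimmer ZNF genes and 2.76% of all genes. Only some of the runs are given here. The runs were set after values had been seen and were not tested.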
